A study of Mus musculus with 6 samples.

Results

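Of 855 miRNA precursors measured in mouse retina, 6 are described here: the abundant pair mmu-mir-872 and mmu-mir-335, and the scarcer mmu-mir-483, mmu-mir-1968, mmu-mir-3086 and mmu-mir-1948. They were chosen by their RPKM values in this contrast, since they were lower in cKO than in control libraries where most other miRNAs were higher, so that difference is a description of the choice. No p-value is given for it, and where the 6 fall among the calls of a fit over all precursors is stated as a count that the choice fixed. Small RNA was sequenced from pools of 6 retinas of 4-week-old mice on a mixed C57BL/6J and SJL background. The 3 control pools had the genotype Dicerfl/fl, iCre75- and the 3 cKO pools Dicerfl/fl, iCre75+, so the floxed Dicer alleles were shared by both groups and the transgene set them apart. As background, iCre75 is driven by a rhodopsin promoter and is therefore a rod transgene, and the pools still hold every other retinal cell type. The labels call the libraries replicates without naming the mice in each pool, and p-values given here measure the spread between these pools.

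Dicer cuts the hairpin of most miRNA precursors into a short duplex, of which a strand is loaded into an Argonaute protein and guides it to mRNAs, mainly through bases 2 to 8, the seed. A precursor that lies in an intron is usually transcribed with its host gene, so its level can follow that gene's promoter. Rods are by far the most numerous cells of the mouse retina, and the sensory miR-183 cluster (mir-182, mir-183 and mir-96) is a well-known miRNA group of photoreceptors.

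The sequences below show what kind of miRNAs these are. The RefSeq table of build GRCm38.p6 held 5 of the 6 precursors, all but mir-1948, each with both arms. Capitals mark the seed, and the values in the libraries are per precursor, so they do not tell the arms apart.
miR-335-5p: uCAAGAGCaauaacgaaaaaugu
miR-335-3p: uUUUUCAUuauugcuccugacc
miR-483-5p: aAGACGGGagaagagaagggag
miR-483-3p: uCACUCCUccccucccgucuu
miR-872-5p: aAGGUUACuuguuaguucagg
miR-872-3p: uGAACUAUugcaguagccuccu
miR-1968-5p: uGCAGCUGuuaaggaugguggacu
miR-1968-3p: aCCACCUCugcagcuguuaag
miR-3086-5p: uAGAUUGUaggcccauugga
miR-3086-3p: cCCAAUGAgccuacagucuaag
The 10 arms had 10 different seeds. None of these seeds recurred in another of the 674 precursors of the deposited table whose RefSeq mature sequences were searched. Among the 639 matched hairpins, none other shared a window of 20 bases, with at most 1 mismatch, with any of the 5.

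All 5 matched precursors lay in introns of protein-coding genes, on the same strand as the gene (GENCODE vM21, build GRCm38). Over the 639 matched precursors this held for 31.9%, and the members were not chosen blind to it, since 2 of the introns were named with the choice. The precursor mir-335 lay at chr6:30741299-30741396 on the plus strand in intron 2 of Mest, a paternally expressed imprinted gene of the hydrolase family. The precursor mir-483 lay at chr7:142654924-142654996 on the minus strand in intron 2 of Igf2, the paternally expressed insulin-like growth factor gene, which an annotated transcript named Gm49394 also spans. The precursor mir-872 lay at chr4:94665157-94665237 on the plus strand in intron 13 of Ift74, which encodes a subunit of the intraflagellar transport complex that builds cilia, the photoreceptor outer segment among them. The precursor mir-1968 lay at chr8:13189031-13189098 on the minus strand in intron 4 of Grtp1, a TBC-domain gene, and mir-3086 at chr19:58911673-58911759 on the minus strand in intron 2 of a long transcript of Hspa12a, an atypical member of the Hsp70 family. None had another RefSeq hairpin within 10 kb, the nearest being Mir7065 at 52.9 kb from mir-1968. Levels of the host mRNAs were not analysed here.

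The hairpins of mir-1968 and mir-3086 had features of their own. In the mir-1968 hairpin, shown here because of its repeat, a run of 19 bases occurred on both sides of the loop, at bases 4 to 22 and again at bases 48 to 66, marked in capitals.
mir-1968 hairpin: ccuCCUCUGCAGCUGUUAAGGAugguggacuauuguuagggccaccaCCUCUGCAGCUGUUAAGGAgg
A repeat of that length or longer was found in 2 of 639 hairpins, where the median longest repeat was 6 bases. The arms miR-1968-5p and miR-1968-3p, listed above, share a run of 13 bases, the longest among the 389 precursors with both arms in the table (median 4).

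The mir-3086 hairpin is shown for its pairing, with capitals for bases that RNAfold placed in pairs.
mir-3086 hairpin: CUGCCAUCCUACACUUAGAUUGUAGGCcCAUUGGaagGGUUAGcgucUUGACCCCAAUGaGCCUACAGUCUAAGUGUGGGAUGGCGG
Of its 87 bases 78 (89.7%) were paired, against a median of 70.8% over 639 hairpins. Its predicted folding energy of -0.723 kcal/mol per base was among the 3 lowest of the 639 (median -0.415). That of mir-1968 was -0.590, while mir-335, mir-483 and mir-872 lay nearer the median, at -0.452, -0.463 and -0.388 kcal/mol per base.

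Levels were deposited as RPKM, reads per kilobase of precursor and per 1000000 reads of the library, so that precursors of different length can be compared. Totals worked out from the values ranged from 5480940 to 7478237 reads, lowest in cKO 3, and 1 read in a precursor of 75 bases was worth 1.78 to 2.43 RPKM. RPKM gives a share of each library and not an amount per retina, and in whole retina fewer cells of a type and less RNA per cell cannot be told apart. As to the tissue, mir-182, mir-183 and mir-96 summed to between 7568210 and 7894240 RPKM in control and between 4037710 and 4911540 RPKM in cKO libraries. Most of that sum was mir-182, at 7089880 to 7654310 RPKM in control and 3699200 to 4511810 RPKM in cKO libraries. The groups overlapped for mir-183 (230841 to 466232 and 287485 to 389297 RPKM) and for mir-96 (9088 to 14568 and 7098 to 10441 RPKM). Other marker lists lay higher in cKO libraries without overlap, namely those labelled inner retina, Müller glia, pigment epithelium, red cells, vessels and leukocytes. For example, the list labelled pigment epithelium (mir-204 and mir-211) stood at 655315 to 758334 in control against 1197360 to 1475670 RPKM in cKO libraries. These names are labels, and which cells made the miRNAs was not tested. Of all precursors tested, 71.6% had all cKO libraries above all controls, so this direction is not particular to these lists. The remaining 3 lists overlapped between groups. Neurons (the mir-124 precursors) lay at 203586 to 291230 RPKM in control and 222199 to 265609 RPKM in cKO libraries, muscle at 930.3 to 1622 and 1566 to 2451 RPKM, and lens and cornea at 2825 to 54745 and 25899 to 64123 RPKM. None of the markers in the table was at 0 in all libraries, and the part of these cell types in the results below was not tested.

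Differences were fitted with limma over the 461 precursors whose mean reached 10 RPKM, on log2(RPKM + 1), which understates differences of low precursors. The 6 members all passed that filter, and all 6 were among the 8 precursors that were lower with a Benjamini-Hochberg adjusted p below 0.05. Such calls made up 1.74% of the precursors tested, and 69.4% were called higher. A lower mean of log2(RPKM + 1) in cKO libraries, with no test, was seen in 32 precursors, or 6.94% of those tested. Each of the 6 also had all cKO libraries below all control libraries, which held for 9 precursors or 1.95% of those tested, while 71.6% had all cKO libraries above all controls. Since this contrast chose the members, these counts are no test of them and nothing is read from them. The other precursors called lower were mir-182 and mir-96.

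Highest of the 6 was mmu-mir-872, the Ift74 intronic miRNA. It stood at 5057, 5755 and 6319 RPKM in control 1 to 3 and at 4264, 4385 and 4214 RPKM in cKO 1 to 3. The cKO libraries lay close together and all below the controls. Control libraries averaged 5710 ± 632 RPKM and cKO libraries 4288 ± 87.9 RPKM (SD, n = 3 each), 75.1% of the control mean and a log2 difference of -0.41 (SE 0.13). Among all precursors its rank was 92 in each control library and 112 to 115 in cKO libraries.

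The Mest intronic miRNA mmu-mir-335 came next. Control libraries held 4055, 4545 and 5215 RPKM, and cKO libraries 3822, 3585 and 3392 RPKM. The gap was narrow, with the lowest control only 1.06 times the highest cKO library. The mean was 4605 ± 582 against 3600 ± 215 RPKM (SD, n = 3 each), 78.2% of control, with a log2 difference of -0.35 (SE 0.14). In both genotypes the ratio of mir-872 to mir-335 was nearly the same, 1.24 ± 0.0277 in control and 1.19 ± 0.0683 in cKO libraries (SD, n = 3 each), and the groups overlapped.

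The Igf2 intronic miRNA mmu-mir-483 was far scarcer. It stood at 139, 123 and 153 RPKM in control and at 87.0, 73.3 and 67.5 RPKM in cKO libraries, from 62 to 79 and from 27 to 44 whole reads. All cKO values lay well below the controls, the lowest control being 1.42 times the highest cKO library. Means were 139 ± 15.0 and 75.9 ± 10.0 RPKM (SD, n = 3 each), 54.8% of control and a log2 difference of -0.86 (SE 0.19). Relative to the Mest intronic miRNA it was lower in every cKO library, the ratio of mir-335 to mir-483 being 29.1 to 36.9 in control and 43.9 to 50.3 in cKO libraries, with no overlap.

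**Figure D1:**
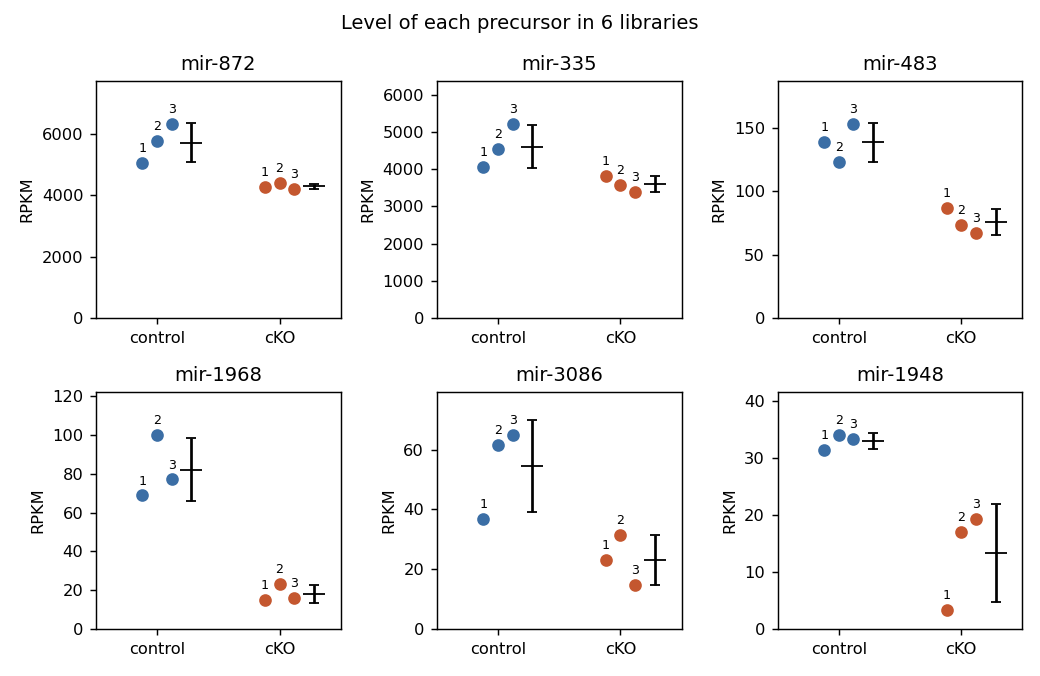
RPKM (linear axis from 0) of the 6 precursors in control (blue) and cKO (orange) libraries, with each point numbered by its library and black bars for mean ± SD (n = 3). In every panel the cKO points lie below the control points, closest for mir-335 and farthest apart for mir-1968.

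The Grtp1 intronic miRNA mmu-mir-1968 showed the lowest log2 difference of all 461 precursors. Control libraries held 68.8, 100.3 and 77.1 RPKM (35, 47 and 37 reads), and cKO libraries 14.9, 23.4 and 16.1 RPKM (7, 11 and 6 reads). The groups lay far apart, with the lowest control at 2.94 times the highest cKO library. Means were 82.0 ± 16.3 and 18.1 ± 4.61 RPKM (SD, n = 3 each), 22.1% of control, and the log2 difference was -2.13 (SE 0.28).

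The Hspa12a intronic miRNA mmu-mir-3086 stood at 36.9, 61.7 and 65.1 RPKM in control and at 23.2, 31.6 and 14.7 RPKM in cKO libraries. Control 1 (24 reads) lay nearer to cKO 2 (19 reads) than to the other controls. Means were 54.6 ± 15.4 and 23.2 ± 8.45 RPKM (SD, n = 3 each), 42.5% of control, with a log2 difference of -1.22 (SE 0.35).

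The scarcest member, mmu-mir-1948, had 20 reads in each of the 3 control libraries and 2, 10 and 9 reads in cKO 1 to 3, with a precursor length worked out from the values. As levels these were 31.5, 34.1 and 33.3 RPKM in control and 3.40, 17.0 and 19.3 RPKM in cKO libraries. The 2 reads of cKO 1 allow 0.411 to 12.3 RPKM and the 10 reads of cKO 2 allow 8.16 to 31.3 RPKM (exact 95% Poisson intervals, counting error only), so these intervals overlap. The mean was 33.0 ± 1.37 against 13.2 ± 8.60 RPKM (SD, n = 3 each), 40.2% of control. The log2 difference of -1.53 (SE 0.54) was -0.83 without cKO 1.

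The spread between libraries was set beside the spread that counting reads gives. Each spread rests on 3 libraries and is imprecise, and none was tested against counting. For mir-872 and mir-335 the controls varied by 11.1% and 12.6% (coefficient of variation), where counting alone gives 1.74% and 1.76%. In cKO libraries mir-872 varied by 2.05%, near the 2.11% that counting gives. For mir-1968 the variation was 19.9% in control and 25.4% in cKO libraries, with 15.9% and 35.4% from counting. For mir-483 both groups varied about as much as counting gives, 10.9% against 11.8% in control and 13.2% against 16.7% in cKO libraries. For mir-3086 they varied more, by 28.2% in control and 36.5% in cKO libraries with 17.2% and 27.4% from counting. The controls of mir-1948 varied by 4.15%, below the 22.4% from counting, and its cKO libraries by 65.0%, above the 37.8% from counting.

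Exact 95% Poisson intervals, which cover counting error only since reads of PCR products are not independent molecules, left 2 members with all control intervals clear of all cKO intervals. These were mir-872, with bounds of 4879 RPKM in control 1 and 4562 RPKM in cKO 2, and mir-1968, with bounds of 47.9 RPKM in control 1 and 41.9 RPKM in cKO 2. For mir-335, mir-483, mir-3086 and mir-1948 the nearest intervals overlapped. In mir-3086 the interval of cKO 2 (19.0 to 49.3 RPKM) held the control 1 value. These intervals were not worked out for the other precursors, so no share over all precursors stands beside the 2 members. Since this contrast chose the members, nothing is read from that count.

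**Figure D2:**
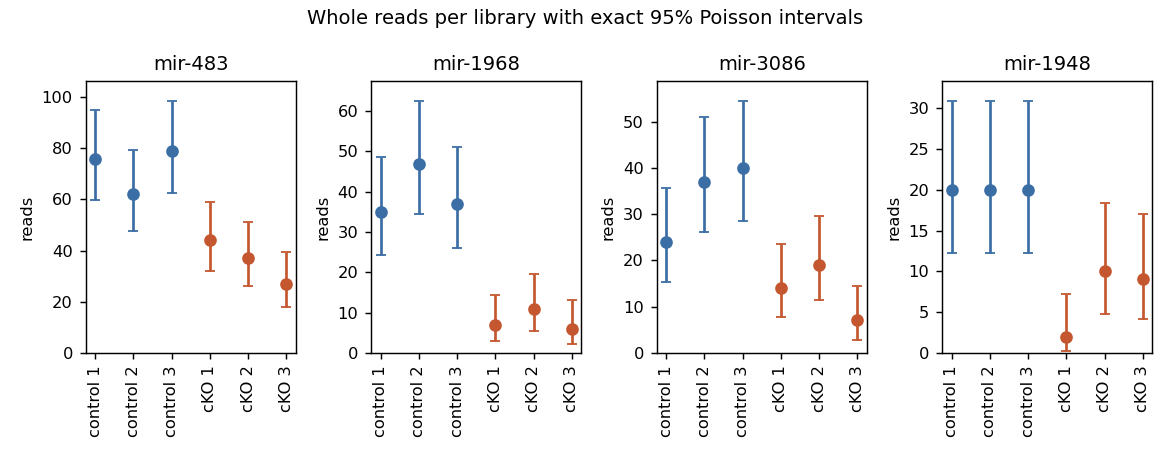
Whole reads (linear axis from 0) of the 4 scarce precursors in each library, with exact 95% Poisson intervals for counting error, control in blue and cKO in orange. The 24 cKO reads of mir-1968, summed over 3 libraries, compare with 119 control reads, and mir-1948 has 20 reads in every control library.

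In control retina the levels were in the order mir-872, mir-335, mir-483, mir-1968, mir-3086 and mir-1948. Of neighbours in that order, the library values of mir-872 and mir-335 overlapped, while those of the other neighbours did not. In cKO retina mir-3086 came before mir-1968, and mir-1968, mir-3086 and mir-1948 overlapped. Within libraries, the ratio of mir-1968 to mir-3086 was 1.87, 1.63 and 1.18 in control 1 to 3 and 0.640, 0.741 and 1.10 in cKO 1 to 3. The order of these members was thus the other way round in cKO 1 and cKO 2 but not in cKO 3, where they had 6 and 7 reads. The 6 precursors together held 828 to 1048 reads per 1000000 in control and 683 to 729.6 reads per 1000000 in cKO libraries.

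Each value is a share of its library, and the share of mir-182 was lower in cKO retina. Over all 461 precursors the median log2 difference was 0.74 as deposited, and against it the members stood at -1.09 for mir-335, -1.15 for mir-872, -1.60 for mir-483, -1.96 for mir-3086, -2.28 for mir-1948 and -2.87 for mir-1968. Scaling by the median of ratios makes the typical precursor level across libraries (median 0.014), and the log2 differences ran from -1.08 for mir-335 to -2.84 for mir-1968. On that scale mir-872 stood at 7292 ± 406 in control and 3299 ± 101 in cKO libraries and mir-335 at 5876 ± 359 and 2773 ± 251 (scaled RPKM, SD, n = 3 each). The gap between groups was wider there, with mir-335 at 5476 or more in control and 3060 or less in cKO libraries. Under all 5 scalings the 6 log2 differences kept their negative sign, and as deposited they were the smallest in size.

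**Figure D3:**
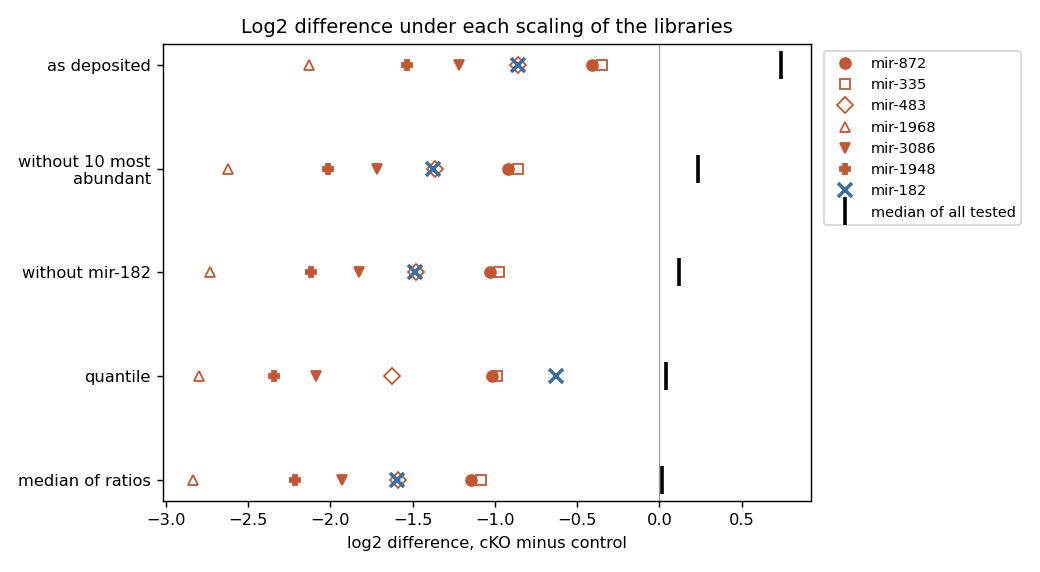
Log2 difference, cKO minus control, of the 6 precursors (orange), of mir-182 (blue) and of the median tested precursor (black) as deposited and under 4 other scalings of the libraries. All 6 stay below 0 in each row, from -0.35 for mir-335 as deposited to -2.84 for mir-1968 with median of ratios, and mir-483 lies on mir-182 except under quantile normalization.

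A ratio to mir-182 within a library does not depend on the total, and it split the members. Per 10000 RPKM of mir-182, mir-872 stood at 6.61 to 8.91 in control and 9.45 to 11.4 in cKO libraries, and mir-335 at 5.30 to 7.36 and 8.47 to 9.28. Both were thus higher relative to mir-182 in every cKO library than in any control. Of the 461 precursors tested, only mir-1968, mir-1948 and mir-3086 had a log2 difference below that of mir-182 (-0.86). A higher level relative to mir-182 was therefore the rule and is not particular to this pair. How many precursors had no overlap in this ratio was not worked out. The ratio of mir-483 was 0.190 ± 0.0230 in control and 0.188 ± 0.00538 in cKO libraries (SD, n = 3 each), a difference smaller than the spread between controls.

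Of the scarcer members, mir-1968 was lower relative to mir-182 in all cKO libraries, at 0.0329 to 0.0606 against 0.0899 to 0.140 per 10000 RPKM. The ratios of mir-3086 (0.0482 to 0.0918 in control, 0.0397 to 0.0818 in cKO) and mir-1948 (0.0411 to 0.0478 and 0.00753 to 0.0522) overlapped between groups. As log2 differences, mir-1968 lay 1.26 below mir-182 (-2.13 against -0.86), and mir-335 lay 0.51 above it (-0.35 against -0.86).

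**Figure D4:**
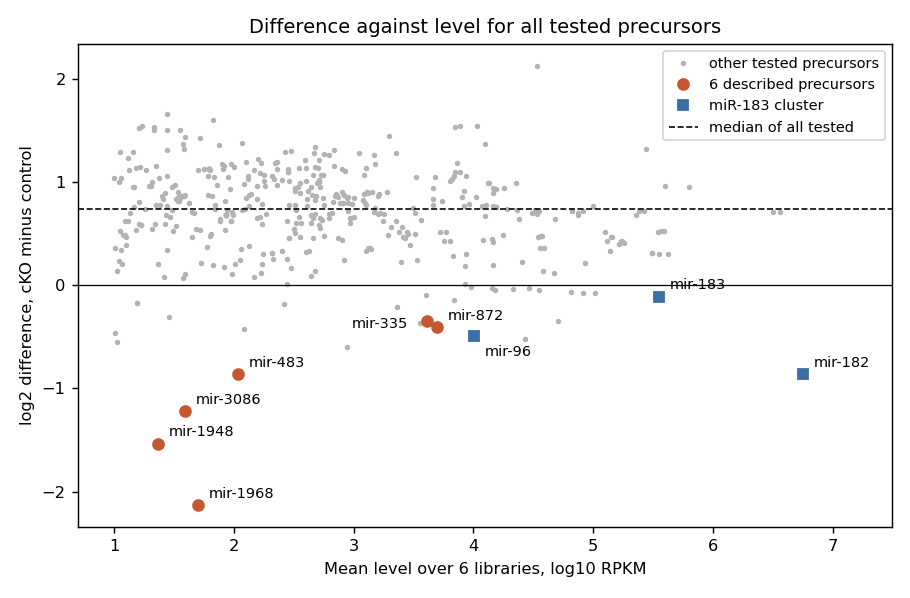
Log2 difference, cKO minus control, against mean level (log10 RPKM) for 461 tested precursors, with the 6 described precursors in orange, the miR-183 cluster as blue squares and the median of all tested, 0.74, as a dashed line. The scarce members lie apart at the bottom left, from -0.86 for mir-483 to -2.13 for mir-1968, while mir-335 and mir-872 lie close to other abundant precursors just below 0.

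The abundant pair shaded into the precursors that were not called. As a description of where the choice ended, just inside the threshold were mir-335, at -0.35, and mir-96, at -0.49. Just outside were mir-1947 at -0.43, mir-92a-2 at -0.52 and mir-423 at -0.37. The mir-1947 libraries did not overlap, at 128 to 158 RPKM in control and 86.8 to 117 RPKM in cKO, while those of mir-92a-2 and mir-423 did. The remaining precursor without overlap was mir-21a, at 7202 to 7287 RPKM in control and 6375 to 6799 RPKM in cKO libraries, named after its values were seen. At the bottom of the order mir-1968, mir-1948 and mir-3086 took the first places, and mir-182 and mir-483 followed at -0.86 each.

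Among 303 other precursors whose mean reached 100 RPKM, the profile most like the average standardised profile of the 6 members over the 6 libraries was that of mir-182 (Pearson r = 0.909). It was followed by mir-21a (r = 0.862), mir-92a-2 (r = 0.806), mir-423 (r = 0.805) and mir-92a-1 (r = 0.803). The members were chosen as lower in cKO libraries, so their average profile is higher in control by that choice. Other precursors with lower cKO levels resemble it for the same reason, and so do the members among themselves. The libraries also share their genotype groups and totals, so these values are a description and no likeness is read from them. Within the 6, r over the 6 libraries was highest for mir-335 with mir-872, at 0.965, and lowest for mir-335 with mir-1948, at 0.475. In the controls, mir-872, mir-335, mir-483 and mir-3086 each had their highest level in control 3, whereas mir-182 had its highest, 7654310 RPKM, in control 1.

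Since Mest and Igf2 are imprinted, the other miRNAs of imprinted loci were set beside mir-335 and mir-483. Outside the Dlk1-Dio3 cluster and the Sfmbt2 gene the list held 5 precursors, of which 4 were tested. Besides the 2 members, whose lower levels chose them, mir-296 and mir-298 of the Gnas locus were called higher (limma, adjusted p = 0.0088 and 0.016). The precursor mir-296 stood at 435, 367 and 475 RPKM in control and 634, 650 and 587 RPKM in cKO libraries, a log2 difference of 0.56 (SE 0.15), and mir-298 had a log2 difference of 0.52 (SE 0.16). Their direction depended on the scaling: with median of ratios they stood at -0.18 and -0.22, below 0 but above mir-335 (-1.08) and mir-483 (-1.59), and with totals without mir-182 at -0.07 and -0.11.

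The precursor mir-675, processed from the H19 RNA next to Igf2, was listed at 0 in 3 libraries and at no more than 2.17 RPKM in the others. Of 47 tested precursors of the Dlk1-Dio3 cluster, a maternally expressed miRNA group, 45 were called higher by limma and none lower, where 69.4% of all precursors tested were called higher. Their log2 differences ran from 0.47 to 1.60 with a median of 1.06, beside 0.74 over all tested, and with median-of-ratios scaling from -0.25 to 0.88. The values of mir-335 and mir-483 lay below that whole range on both scales.

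**Figure D5:**
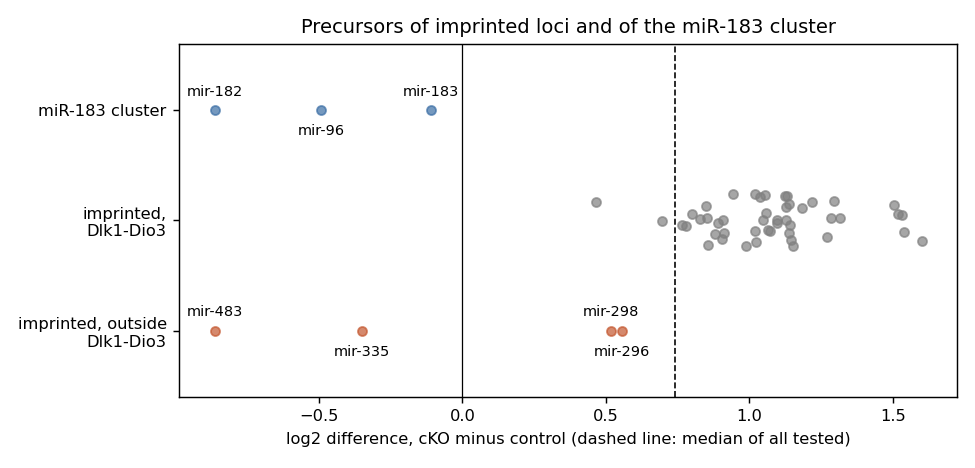
Log2 difference, cKO minus control, as deposited, for tested precursors of imprinted loci outside Dlk1-Dio3 (4), of the Dlk1-Dio3 cluster (47, spread vertically at random) and of the miR-183 cluster (3), with a dashed line at the median of all tested, 0.74. The precursors mir-335 and mir-483 lie left of 0 and all 47 of Dlk1-Dio3 lie right of it.

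In the miR-183 cluster, mir-182 and mir-96 were called lower (limma, adjusted p = 2.4e-04 and 0.048) and mir-183 was not, at -0.11 (adjusted p = 0.68). The libraries of mir-96 overlapped between groups, and those of mir-182 did not. The cluster's range of -0.86 to -0.11 held mir-335, mir-872 and, at its lower end, mir-483, while mir-1968, mir-3086 and mir-1948 lay below it.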

How the data were processed

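Small RNA libraries came from 1 µg of RNA of 6 pooled retinas, with 11 PCR rounds and gel selection, and all 6 were read in a single run of 50-base single ends, per the labels' protocols. The authors deposited RPKM values for 855 precursors, per the file headers. Bowtie and build mm9 are named in the submitters' processing notes; not given in the sources used here: annotation, multi-mapping rule and filters.

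RPKM times precursor length gave whole reads for 100.0% of 3834 values of 639 precursors with a RefSeq length (tolerance 0.01 reads), and from these the library totals. Where no length was at hand (mir-1948 among them), the shortest that gave whole reads in every library was taken, which was right in 98.2% of 398 precursors tested.

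Values of log2(RPKM + 1) of the 461 precursors whose mean reached 10 RPKM were fitted by lmFit and by eBayes with a trend (limma 3.58.1, R 4.3.3), two-sided, Benjamini-Hochberg over all. The files held RPKM as the design assumed. Tested on simulated data with 200 of 461 precursors changed, the fit recovered 58.0%, 85.5% and 100.0% of 1.5-, 2- and 4-fold changes. Of its calls, 4.24% were unchanged precursors. In that simulation every precursor had a dispersion of 0.03, and changes went up or down at random. The libraries here showed a broad rise instead, so these rates need not hold for them. Poisson intervals came from scipy 1.17.1, folding energies from RNAfold 2.7.2 and figures from matplotlib 3.10.9. The members, the lists and the tests were chosen with earlier results of these data known. Named besides the members were the other precursors called lower, the 3 nearest outside the threshold, the 5 of most similar profile, and the listed members of the miR-183 cluster and imprinted loci. Alternatives covered pseudocount, filter, scaling, variance model, replicate block and leaving out each library. RefSeq and GENCODE coordinates are of GRCm38, not of the authors' build.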

Additional observations from a re-analysis of the deposited data

How the results depend on the processing

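The 6 log2 differences were negative in all 99 alternative values computed for them, between -2.84 and -0.26; 21 of these moved by more than the spread between replicates, 20 through scaling and 1 (mir-1968, -1.71) through a pseudocount of 10. Leaving out each library gave -0.44 to -0.26 for mir-335, -0.49 to -0.33 for mir-872, -0.96 to -0.78 for mir-483, -1.48 to -0.94 for mir-3086, -1.93 to -0.83 for mir-1948 and -2.32 to -1.98 for mir-1968. With a mean of at least 100 RPKM required, mir-1948, mir-1968 and mir-3086 were not tested. Over all precursors 8 were called lower and 320 higher. The counts were 46 and 10 with median-of-ratios scaling, 31 and 14 with quantile normalization, 29 and 57 with totals without the 10 most abundant precursors, and 36 and 20 with totals without mir-182; these scalings lower the median log2 difference from 0.74 to between 0.014 and 0.23. With the filter at 100 RPKM 4 were called lower, of fewer precursors tested. Leaving out each library gave 4 to 12 lower (4 without control 2 and without control 3, 5 without cKO 2 and without cKO 3) and 252 to 322 higher. The labels do not say that same-numbered libraries are paired. Correlations of deviations were 0.19, 0.26 and 0.0093 for same-numbered libraries and -0.22 to 0.048 for the other combinations. With so few libraries these values cannot settle whether the numbers pair them. With the replicate number as a block 10 were called lower and 338 higher. Depth limits mir-1948, mir-1968 and mir-3086, at 2 to 47 reads per library.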
